A study of Homo sapiens with 2 samples.

Results

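A549 cells carrying a gRNA against RPL18 or TRMT112, a pair of genes that serve the ribosome and translation, were compared with cells carrying a non-targeting gRNA in a pooled CROP-seq experiment. A gRNA was called in a cell at more than 3 UMIs (unique molecular identifiers, each standing for 1 captured molecule), and cells with exactly 1 called gRNA were kept. This gave 46 cells for the 4 RPL18 gRNAs and 27 cells for the 4 TRMT112 gRNAs, together 73 of 5744 cells, and 696 control cells. A549 is a lung adenocarcinoma line, and its Cas9 stood under a doxycycline-inducible promoter, so that all groups, controls included, carried Cas9, a gRNA cassette and puromycin resistance. All cells came from 1 lentiviral pool of 120 gRNAs delivered at an MOI (viral particles per cell) of 0.3, were selected for 10 to 14 days, induced for 2 days and grown for 5 more days. Further 27 and 17 cells had an RPL18 or TRMT112 gRNA beside another called gRNA and were left out, against 46 and 27 kept. Over the whole series 3189 cells had 1 called gRNA, and 272, 8 and 6 cells had 2, 3 and 4. The part left out was larger for these targets than over the series, though a cell with 2 calls can count for 2 targets. The cause was not tested. No cell had its RPL18 or TRMT112 gRNA at exactly 3 UMIs, and 1 kept cell of each pool had exactly 4 gRNA UMIs. Few calls of the target gRNAs themselves therefore lay next to the threshold. How many second gRNAs lay near it was not counted. The paper reports that Cell Ranger tolerates mismatches, and that some cells it labelled with an intact gRNA expressed a mutant gRNA. It describes mutant gRNAs as apparently dysfunctional. It also reports weaker target reduction in cells with an undetected further gRNA. The gRNA counts used here come from Cell Ranger and do not tell mutant from intact gRNAs. How many kept cells carried a mutant or an undetected gRNA was not tested.

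RPL18 encodes a large-subunit component of the ribosome, whose assembly needs most of its proteins. When assembly is disturbed, free large-subunit proteins are known to bind MDM2, which relieves p53, and A549 cells are known to have wild-type p53. TRMT112 has no enzymatic activity of its own. It is the activating subunit of several methyltransferases, among them BUD23 and METTL5, which modify 18S rRNA, TRMT11, THUMPD2 and THUMPD3, which act on tRNA or small nuclear RNA, ALKBH8, which modifies the tRNA wobble base, and N6AMT1, which methylates the translation termination factor ETF1.

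The positions of the Cas9 sites are shown because the gRNAs cut at very different points of the coding sequences. All predicted cuts lie in coding exons, in GRCh38. Whether all 20 bases of each site are coding was not checked. The bases were read from that genome with the PAM in capitals. The coordinates are those of the 20 bases next to the PAM.
RPL18 gRNA1 site, chr19:48615399-48615418, minus strand: tcgagcgtgccagaggccgaCGG
RPL18 gRNA2 site, chr19:48615937-48615956, minus strand: ccttccctaggtcctcgcaaGGG
RPL18 gRNA3 site, chr19:48617856-48617875, minus strand: agtggacatccgccataacaAGG
RPL18 gRNA4 site, chr19:48616151-48616170, minus strand: cagccgcatcctcagggcagGGG
TRMT112 gRNA1 site, chr11:64317120-64317139, minus strand: gatccaggtgccgaaagggcCGG
TRMT112 gRNA2 site, chr11:64317342-64317361, plus strand: agggcagatacggacctcggTGG
TRMT112 gRNA3 site, chr11:64317484-64317503, minus strand: gctgagctcgcatgtgcgggGGG
TRMT112 gRNA4 site, chr11:64317485-64317504, minus strand: tgctgagctcgcatgtgcggGGG
RPL18 (ENSG00000063177) lies on the minus strand of chromosome 19 with 7 exons in the transcript used. The predicted cut of RPL18 gRNA3 falls in exon 2, after 3.90% of the coding sequence. The cuts of gRNA4, gRNA2 and gRNA1 follow in exons 5, 6 and 7, after 61.3%, 75.9% and 95.2% of it. TRMT112 (ENSG00000173113) lies on the minus strand of chromosome 11 with 4 exons. Its gRNA3 and gRNA4 sites are shifted by 1 base and cut in exon 1, after 10.7% and 10.4% of the coding sequence, so that these gRNAs are not independent sites. TRMT112 gRNA2 cuts in exon 2, after 22.7%, and gRNA1 in exon 3, after 54.7%. The bases of gRNA2 and gRNA4 also match exactly in TRMT112P6, a processed pseudogene on chromosome 2.

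Few cells remained for either gene. Among the 25 targets, the TRMT112 pool was the 2nd smallest and the RPL18 pool the 5th smallest. RPL18 gRNA1, gRNA2, gRNA3 and gRNA4 were carried by 2, 15, 26 and 3 cells, and TRMT112 gRNA1, gRNA2, gRNA3 and gRNA4 by 10, 1, 5 and 11 cells. Of the control gRNAs, 15 had 10 or more cells, from 13 to 134 with a median of 30. As the abundance of each gRNA in the starting library was not analysed here, loss of cells and low starting abundance cannot be told apart. The 3 cells of RPL18 gRNA4 held only 6210 UMIs in all, against 548865 UMIs for gRNA2 and 1152655 for gRNA3.

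Median depth was similar in the pools. The median UMIs per cell were 36978 (95% interval 29846 to 51621) with RPL18 gRNAs, 30217 (21400 to 38615) with TRMT112 gRNAs and 33582 (32348 to 35517) in control cells, and single control gRNAs ranged from 25129 to 40842. The 5 cells of TRMT112 gRNA3 were shallower, with a median of 14850 UMIs and 2 cells under 10000 UMIs. Of the TRMT112 cells 14.8% were under 10000 UMIs, against 8.70% of RPL18 cells and 6.61% of control cells. Mitochondrially encoded transcripts made up 13.2% and 12.9% of the UMIs, against 12.1% in control cells and 10.3 to 13.6% over single control gRNAs. Of 10 markers of lung epithelium and A549, 3 or more were detected in 44 of the 46 and 24 of the 27 cells, and in 645 of 696 control cells. NKX2-1, SFTPB and SFTPC, which mark differentiated lung epithelium, were at 0 in both pools. In the control cells, which were many more, SFTPB was also at 0, and NKX2-1 and SFTPC were detected. No cell of either pool had 3 markers of HEK293T (the usual packaging line for lentivirus), of fibroblasts, of immune and blood cells or of endothelium. The summed level of the 6 HEK293T markers was 46.6 CPM (counts per 1000000 UMIs) with RPL18 gRNAs and 41.9 CPM with TRMT112 gRNAs, against 22.8 CPM in control cells, that is 2.04 and 1.84 times control where single control gRNAs ran from 0.446 to 1.93. NEFL, a neurofilament gene, held most of it in the RPL18 pool, with 50 UMIs in 19 cells. The part of these markers in the results below was not tested.

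The level of each target transcript was read first. UMIs were summed over the cells of a gRNA or pool and divided by all gene UMIs, and intervals of these levels are exact 95% intervals that cover counting error only. As all cells came from 1 culture, gRNAs and cells are not replicates of a condition and no p-values are given. The 15 control gRNAs, each set against the other control cells, show how far gRNAs with no target spread.

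TRMT112 transcript was lower in cells with its own gRNAs, but not with each of them. The level was 247 CPM for gRNA1, 96.0 CPM for gRNA2 (2 UMIs in 1 cell), 395 CPM for gRNA3 and 187 CPM for gRNA4. Over the control gRNAs it had a lowest value of 313, a median of 342 and a highest value of 387 CPM, so that gRNA1, gRNA2 and gRNA4 lay below all of them and gRNA3 above. The pool was at 65.7% of control (56.9 to 75.5%), a log2 ratio of -0.60, and was the lowest of the 25 target pools for this transcript. TRMT112 gRNA4 cells were at 53.5% (43.1 to 65.7%) and gRNA1 cells at 70.5% (54.0 to 90.5%), while gRNA3, whose site overlaps that of gRNA4, was at 113% (82.8 to 150%) with 5 cells. Without gRNA4 the log2 ratio was -0.30, and without gRNA3 it was -0.77. As a mean over cells in place of pooled UMIs it was -0.28, and over cells with at least 10000 UMIs -0.70. TRMT112 therefore stayed outside the called genes defined below, which required the same sign in each gRNA.

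RPL18 transcript was lower by less. In control cells it was abundant, at 4272 CPM, and single control gRNAs ran from 4003 over a median of 4253 to 4457 CPM. The 4 gRNAs gave 3158 CPM for gRNA1, 4234 CPM for gRNA2, 3775 CPM for gRNA3 and 3221 CPM for gRNA4. Only gRNA2 lay within the control range, and the interval of gRNA4 (46.1 to 116% of control) spanned all of it. The pool was at 90.6% of control (88.5 to 92.9%), a log2 ratio of -0.14 against -0.10 to 0.06 for single control gRNAs, and was the 2nd lowest of the 25 pools after DHODH with 88.6%. gRNA3, with the earliest cut, was at 88.4% (85.7 to 91.1%) and gRNA2 at 99.1% (95.1 to 103%). The 2 cells of gRNA1 were at 73.9% (66.5 to 81.9%). With scaling by the median ratio over genes the log2 ratio was -0.07, inside the range that the control gRNAs had under the usual scaling.

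**Figure D1:**
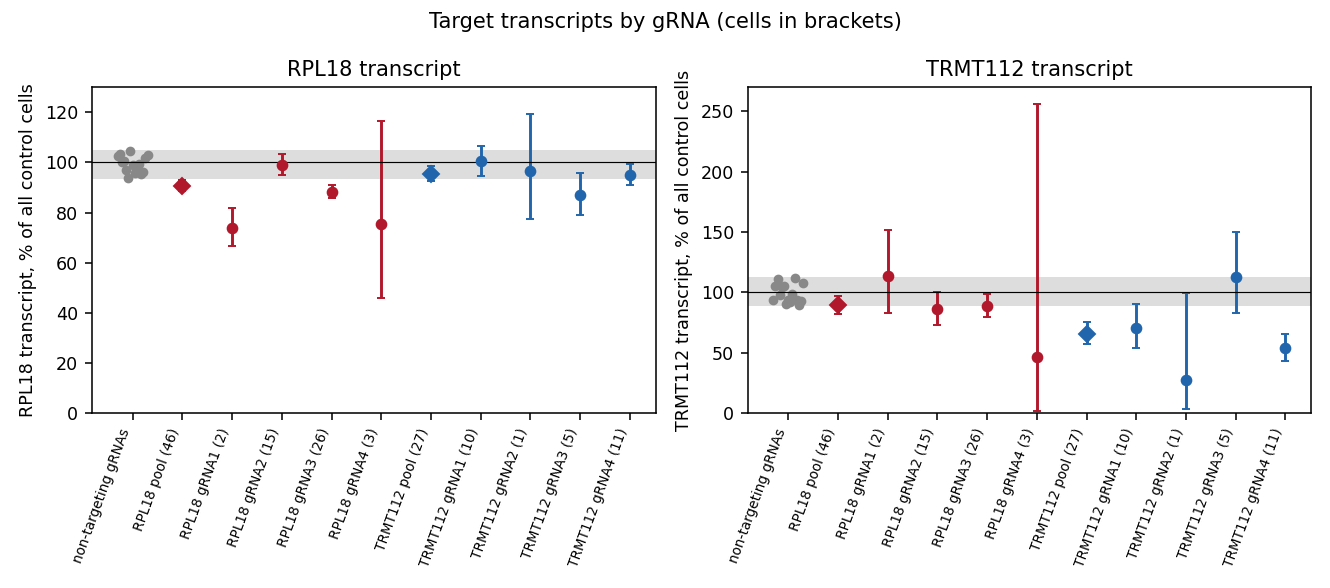
Level of the RPL18 transcript (left) and the TRMT112 transcript (right), in percent of all control cells, for each gRNA and for the pools (diamonds), with exact 95% counting intervals as bars. Grey points and the grey band are the 15 control gRNAs. In the right panel TRMT112 gRNA4 (53.5%) and gRNA1 (70.5%) lie below the band and gRNA3 (113%) does not, and in the left panel the RPL18 pool lies just below it at 90.6%.

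Target levels were also read in single cells. Among cells with at least 10000 UMIs, 7 of 23 TRMT112 cells were below the 5th percentile of control cells for TRMT112 transcript (137 CPM), that is 30.4% (13.2 to 52.9%). These were 2 of 8 gRNA1 cells, the 1 gRNA2 cell and 4 of 11 gRNA4 cells, and 0 of 3 gRNA3 cells. In the RPL18 pool 2 of 42 cells were below that level. At a median of 12 UMIs of TRMT112 in a control cell, a single cell could not be sorted into edited or unedited by its level. For RPL18 transcript, 7 of 42 RPL18 cells (16.7%, 6.97 to 31.4%) were below the control 5th percentile of 2935 CPM. Of these, 5 carried gRNA3 (5 of 25 cells), 1 carried gRNA2 (1 of 15 cells) and 1 carried gRNA1 (1 of 2 cells). Of the TRMT112 cells 3 of 23 were below the same level, so that the interval of 2.78 to 33.6% there overlapped that of the RPL18 pool.

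**Figure D2:**
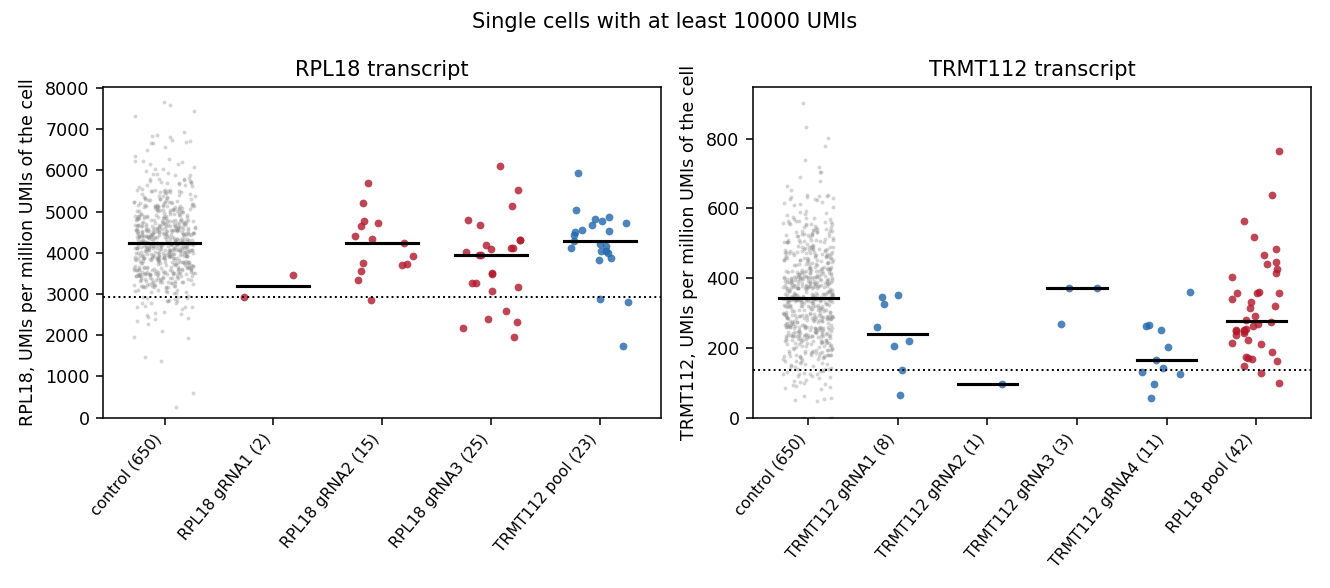
Level of each target transcript in single cells with at least 10000 UMIs, in CPM of the cell's UMIs, with cell numbers in brackets. Bars are medians, and the dotted line is the 5th percentile of control cells (2935 and 137 CPM). A few gRNA3 cells lie below the line for RPL18 and gRNA1 and gRNA4 cells for TRMT112, while most cells overlap the control cells.

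Transcripts around the cut sites were read next, as genes beyond a cut can be lost with a chromosome end. For the 70 measured genes between RPL18 and the telomere of the long arm, the median log2 ratio was -0.06, against -0.07 over all genes of the RPL18 pool. For the 68 measured genes beyond TRMT112 it was 0.00 in the TRMT112 pool, against -0.01 over all genes. Summed UMIs of these arms were at 1.08 and 1.10 times control, inside the ranges of 0.877 to 1.11 and 0.927 to 1.11 over control gRNAs. Of the TRMT112 gRNAs with at least 5 cells, gRNA3 was at 0.877 and gRNA4 at 1.21, and the 1 cell of gRNA2 was at 1.23. In each arm 1 gene held much of the sum, FTL, the ferritin light chain, with 56.8% of the UMIs beyond RPL18 and MALAT1, a nuclear long non-coding RNA, with 27.4% beyond TRMT112. Below the 5th percentile of control cells for the arm's share were 0 of 42 RPL18 cells, which allows a share of up to 8.41% (exact interval), and 1 of 23 TRMT112 cells. A loss in a few cells was not detectable at this number of cells. Among direct neighbours of TRMT112 within 100 kb, PRDX5, a peroxiredoxin, had a log2 ratio of 0.16 and BAD, a BCL2 family member, of -0.16 in the TRMT112 pool, both within the control gRNAs.

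Genes were then compared across the transcriptome. A gene was called when it had at least 50 UMIs in the pool or expected there at the control level, changed at least 1.5-fold (0.58 on the log2 scale, after adding 1 CPM to both levels), lay outside all 15 control gRNAs and had the same sign in each gRNA with at least 5 cells. These were gRNA2 and gRNA3 for RPL18 and gRNA1, gRNA3 and gRNA4 for TRMT112. In the RPL18 pool 20 of 4140 genes were called higher (0.483%) and 57 lower (1.38%). In the TRMT112 pool 8 of 2304 genes were called higher (0.347%) and 20 lower (0.868%). Over both pools together 9 of 5481 genes were called higher (0.164%) and 18 lower (0.328%). Past 1.5-fold alone were 42 genes higher (1.01%) and 106 lower (2.56%) in the RPL18 pool, 22 higher (0.955%) and 35 lower (1.52%) in the TRMT112 pool, and 42 higher (0.766%) and 84 lower (1.53%) in both together. One gene of each pool's calls is not named here.

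The RPL18 pool leaned downwards as a whole. Its median log2 ratio over all genes was -0.07, with 37.5% of the genes above 0, the lowest median of the 25 target pools and below the -0.04 to 0.03 of single control gRNAs. The split of the RPL18 calls therefore depended on the scaling: with scaling by the median ratio over genes it was 47 higher and 26 lower, and with scaling over genes other than ribosomal protein and mitochondrial genes 34 higher and 47 lower. For the TRMT112 pool the median was -0.01, and these scalings gave 9 and 10 higher and 18 and 17 lower. Called genes had a median of 56 UMIs in the RPL18 pool and 53 UMIs in the TRMT112 pool, so that single folds are imprecise.

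The 10 highest called genes of the RPL18 pool had log2 ratios of 0.71 to 1.01. VTN, which encodes vitronectin, a serum and matrix protein, rose from 21.0 CPM in control cells to 43.3 CPM (2.07-fold, 1.61 to 2.62), with log2 ratios of 1.39 for gRNA2 and 0.90 for gRNA3. CXCL1, a neutrophil-attracting chemokine, rose 2.04-fold (1.55 to 2.64), and its UMIs lay in 14 of the 46 cells. TP53TG1, a long non-coding RNA induced by p53, rose 1.73-fold (1.43 to 2.08), with 0.90 and 0.73 for gRNA2 and gRNA3. CDKN1A, the p53-induced inhibitor of cyclin-dependent kinases, rose from 104 to 175 CPM (1.68-fold, 1.49 to 1.89). Its rise was carried by gRNA3 (log2 ratio 1.03) rather than gRNA2 (0.14), and 1 cell held 83 of the 320 UMIs. Without that cell the log2 ratio was 0.38, inside the -1.69 to 0.54 of control gRNAs. ZNFX1, an interferon-induced helicase, was at 0.83, and at 0.53 without its top cell. SLC35D2, a nucleotide sugar transporter, SYNPO, an actin-binding protein, ENC1, an actin-binding adaptor, LIPE-AS1 and FAM222B made up the rest of the 10 highest, with log2 ratios of 0.71 to 0.87. The rises of SYNPO and LIPE-AS1 were carried by gRNA3 (1.01 and 1.09) rather than gRNA2 (0.05 and 0.10). CTSB, the lysosomal protease cathepsin B, was the deepest of the called genes, with 795 UMIs in all 46 cells, 436 against 276 CPM and a log2 ratio of 0.66, which was 0.50 without its top cell.

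The 10 lowest called genes of the RPL18 pool had log2 ratios of -0.95 to -0.79. NFKBIB, an inhibitor of NF-kappaB, fell to 0.50-fold (0.34 to 0.72), with -0.73 for gRNA2 and -1.07 for gRNA3. MAD2L1 of the spindle checkpoint fell to 0.52-fold (0.37 to 0.70), FANCI of the Fanconi anemia DNA repair pathway to 0.54-fold (0.39 to 0.74) and H2AFX, the histone phosphorylated at DNA breaks, to 0.56-fold (0.43 to 0.72). POLR2B, the second-largest subunit of RNA polymerase II, had -0.86, NUBP1, a factor of cytosolic iron-sulfur cluster assembly, -0.91, and PPIF, a mitochondrial cyclophilin, -0.79. SNX8, a sorting nexin, RFLNB, a filamin-binding protein, and SLC25A24, a mitochondrial carrier, had -0.89, -0.88 and -0.81. CAV1, the main protein of caveolae, was the most abundant of the called lower genes named, at 282 against 451 CPM (log2 ratio -0.67, with -0.81 for gRNA2). CAV1 and CTSB were chosen after their values were seen.

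Ribosomal protein transcripts other than RPL18 were not lower in the RPL18 pool. Over the 46 other large-subunit genes the median log2 ratio was 0.04, with 37 above 0, and single control gRNAs ran from -0.04 to 0.04. The highest control gRNA lay just below the pool. Of these 46 genes 0 were called, against 0.483% higher and 1.38% lower over all genes tested. The lowest was RPL17 at -0.18 and the highest RPL37A at 0.31 and RPL34 at 0.24, so that RPL18 itself (-0.14) lay near the bottom of its own class. Over the 33 small-subunit genes the median was 0.06, with 23 above 0 and RPS2 (-0.14) and RPS27A (0.16) at the ends. The direction of these small shifts was not specific to the pool: with the 93 cells carrying a gRNA against TUBB1, a tubulin hardly expressed outside the megakaryocyte lineage, as the control, the medians were -0.01 and 0.00. Many ribosomal protein genes have processed pseudogenes, and reads that fit several loci are not counted by Cell Ranger, so small differences between single members are uncertain.

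Genes that build ribosomes were low in the RPL18 pool as a list, with no single member called. Of 31 measured ribosome biogenesis genes 29 were below 0, with a median of -0.29, against -0.07 over all genes and -0.15 to 0.15 over control gRNAs. Of these 31 genes 0 were called, where 1.38% of all genes tested were called lower. NIP7, a factor of pre-rRNA processing, was at -0.55, NOB1, the nuclease that finishes 18S rRNA, at -0.48, UBTF, an activator of RNA polymerase I, at -0.47, and NPM1, the abundant nucleolar chaperone, at -0.45. The median was -0.23 for gRNA2 and -0.27 for gRNA3, and the summed UMIs of the list were at 0.82 times control (0.80 to 0.84), outside the 0.93 to 1.08 of single control gRNAs. It was the lowest median of the 25 target pools for this list. TRMT112 cells had 19 measured members, with a median of -0.04, and gRNA1, gRNA3 and gRNA4 gave 0.17, 0.17 and -0.24, so that they did not share a direction.

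Other lists of the translation and protein folding machinery were low in the same cells. The 19 measured aminoacyl-tRNA synthetases, which charge tRNAs, had a median of -0.37 with 18 below 0, against -0.17 to 0.14 over control gRNAs. The median was -0.63 without gRNA3 and -0.26 without gRNA2. AARS, for alanine, was the called member, at 35.1 against 57.8 CPM and a log2 ratio of -0.70, while FARSA and EPRS were at -0.51 and TARS at -0.47. All 30 measured proteasome genes were below 0, with a median of -0.24 against -0.08 to 0.13 over control gRNAs, from PSMD11 at -0.50 to PSMA7 at -0.10, and 0 were called. The 24 measured heat shock and chaperone genes had a median of -0.27 with 22 below 0, against -0.14 to 0.13. CHORDC1, a co-chaperone of HSP90, was the called member at -0.64, and HSPA1A and HSP90AB1 were at -0.58 and -0.39. Of all genes tested in the RPL18 pool 1.38% were called lower. Translation factors were near the background, with a median of -0.11 over 41 genes against -0.08 to 0.04: EIF2S1, the alpha subunit of eIF2, was at -0.76, and the abundant elongation factors EEF1A1 and EEF2 were at 0.21 and 0.10. For each of these lists the RPL18 pool had the lowest median of the 25 pools, which share the control cells. Medians in TRMT112 cells were -0.09 for synthetases and 0.00 for translation factors, inside the control range. The chaperone median was -0.16, just below the -0.14 of the lowest control gRNA, with 18 of 21 genes below 0 and CHORDC1 again called, at -0.61. Of all genes tested in the TRMT112 pool 0.868% were called lower. The proteasome median was -0.09, level with the lowest control gRNA, and turned to 0.07 without gRNA4.

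**Figure D3:**
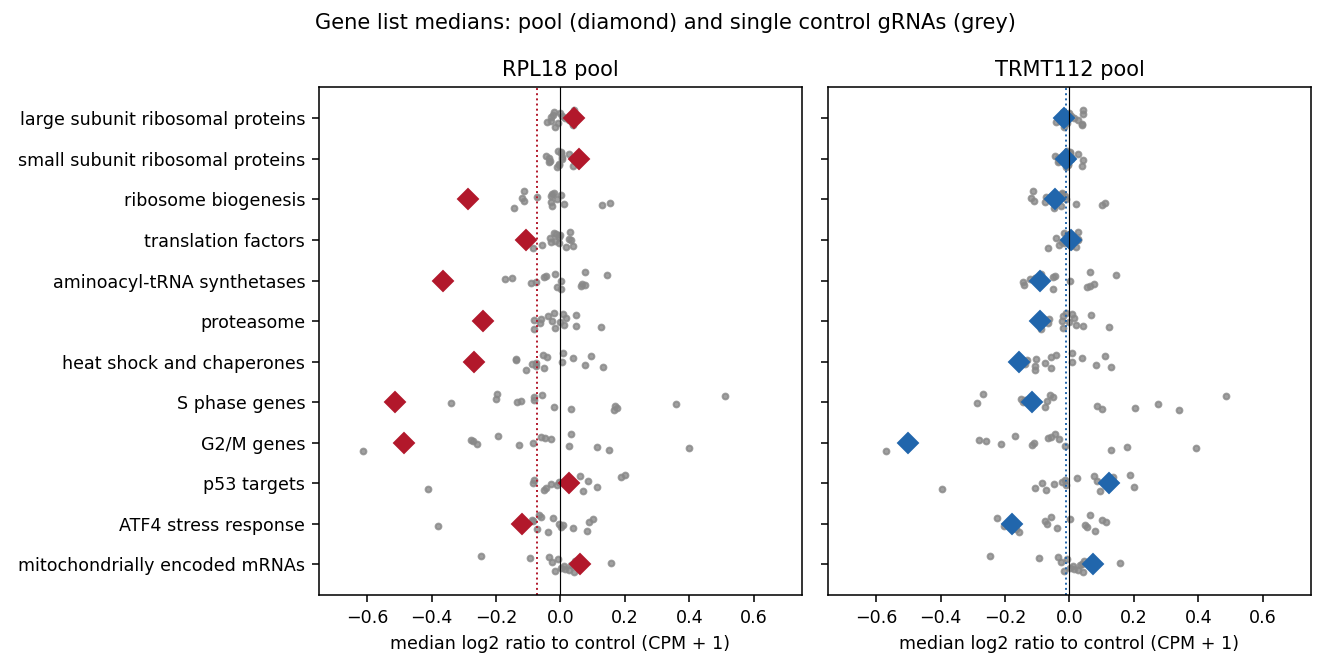
Median log2 ratio to control over the measured members of 12 gene lists in the RPL18 pool (left) and the TRMT112 pool (right). Diamonds are the pools, grey points the 15 control gRNAs and the dotted line the median of all genes. In the RPL18 pool the lists of ribosome biogenesis (-0.29), synthetases (-0.37), proteasome (-0.24) and chaperones (-0.27) lie left of all control gRNAs, and the G2/M list (-0.49) does not.

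G2/M genes were low in both pools and S phase genes in the RPL18 pool, with a wide spread among control gRNAs. In the RPL18 pool 18 of 19 measured S phase genes were below 0, with a median of -0.51 against -0.34 to 0.51 over control gRNAs, and 4 were called lower, against 1.38% of all genes tested: the helicase subunit MCM5 (-0.79), the clamp loader subunit RFC2 (-0.79), GINS2 of the replication fork (-0.75) and the histone chaperone NASP (-0.59). The S phase median was -0.30 for gRNA2, inside the control range, and -0.67 for gRNA3, below it. All 42 measured G2/M genes were below 0, with a median of -0.49, which lay within the -0.61 to 0.40 of control gRNAs. Called were NUSAP1 (-0.72) and RANGAP1 (-0.61), and DLGAP5 and AURKA were at -0.80 and -0.74. The G2/M median was -1.25 for gRNA2 and -0.38 for gRNA3, and the pool was at -0.73 without gRNA3. In the TRMT112 pool all 23 measured G2/M genes were below 0, with a median of -0.50 inside the control range of -0.57 to 0.39, and 4 were called lower, against 0.868% of all genes tested: ANP32E (-1.08), the mitotic kinase CDK1 (-0.98), the proliferation marker MKI67 (-0.96) and the condensin subunit SMC4 (-0.64). Its S phase list was at -0.12 over 8 genes, inside the control range of -0.29 to 0.49, with TYMS, the thymidylate synthase, at -0.56. Among the 25 target pools the RPL18 pool had the lowest S phase median. For G2/M genes the TRMT112 pool ranked 3 and the RPL18 pool 5 from the lowest, with DHODH (-0.68) and SUV39H1 (-0.65) below both. The TUBB1 pool was also low in G2/M genes (-0.38), and with its cells as the control the G2/M medians were -0.16 and -0.17 in the RPL18 and TRMT112 pools. The part of the cell cycle in the other lists was not tested.

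p53 target genes did not rise as a group in the RPL18 pool. Of 21 measured targets 11 were above 0 and 10 below, with a median of 0.03 against -0.41 to 0.20 over control gRNAs. CDKN1A was called higher and TIGAR, a regulator of glycolysis, lower (-0.65), while MDM2 was at -0.09, GDF15 at 0.20 and TP53I3 at 0.38. Of all genes tested 0.483% were called higher and 1.38% lower in the RPL18 pool. In the TRMT112 pool 12 of 13 measured targets were above 0, with a median of 0.12 that lay within the control range of -0.40 to 0.20. TP53I3, an oxidoreductase, was at 0.53, above the 0.38 of the highest control gRNA, but not past 1.5-fold. FDXR, the reductase that feeds electrons to mitochondrial cytochrome P450 enzymes, was called, at 197 against 129 CPM (1.52-fold, 1.30 to 1.78), with 0.86, 0.75 and 0.43 for gRNA1, gRNA3 and gRNA4. One cell held 39 of its 174 UMIs, and without that cell the log2 ratio was 0.38. Of all genes tested in the TRMT112 pool 0.347% were called higher. CDKN1A was at 0.38 and MDM2 at -0.10 in this pool, both within the control gRNAs, and CDKN1A in the TUBB1 pool was at 0.39. The gRNAs against TRMT112 differed for CDKN1A, at -0.54, 0.17 and 0.77 for gRNA1, gRNA3 and gRNA4.

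The partners of TRMT112 were measured in both pools. With TRMT112 gRNAs BUD23 was at -0.16, METTL5 at -0.13 and ETF1 at -0.08, all within the control gRNAs and none called. N6AMT1, ALKBH8, TRMT11, THUMPD2 and THUMPD3 had between 0 and 38 UMIs there, below the minimum. ALKBH8 had 0 UMIs against 3.66 CPM in control cells, which at this depth allows a ratio of up to 1.17, so that no difference was detectable. In the RPL18 pool 2 of 4 measured partners were called lower, against 1.38% of all genes tested. BUD23 was at 66.4 against 104 CPM (0.64-fold, 0.53 to 0.77), with -0.57 and -0.72 for gRNA2 and gRNA3, and THUMPD3 at 24.1 against 38.3 CPM (0.63-fold, 0.45 to 0.85), with -1.33 and -0.49. The 2 other measured members were ETF1 at -0.36 and METTL5 at 0.26. TRMT112 itself was at 89.2% of control in the RPL18 pool (81.8 to 97.1%), a log2 ratio of -0.17 against -0.16 for the lowest control gRNA, and RPL18 at 95.5% (92.4 to 98.8%) in the TRMT112 pool.

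**Figure D4:**
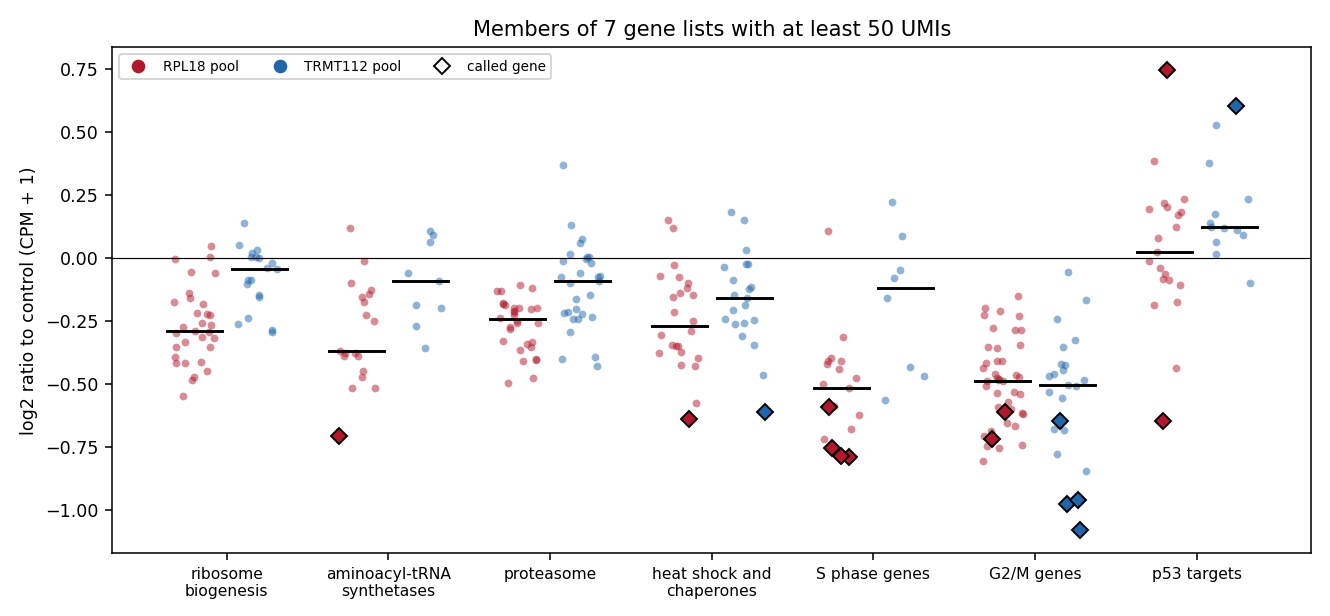
Log2 ratio to control of each member with at least 50 UMIs in 7 gene lists, in the RPL18 pool (red) and the TRMT112 pool (blue). Bars are medians and diamonds are called genes. All 30 proteasome genes of the RPL18 pool lie between -0.50 and -0.10 with 0 called, and the called p53 targets are CDKN1A (0.74) and TIGAR (-0.65) in RPL18 cells and FDXR (0.60) in TRMT112 cells. Over all genes tested, 0.483% were called higher and 1.38% lower in the RPL18 pool, and 0.347% higher in the TRMT112 pool.

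The 10 lowest called genes of the TRMT112 pool had log2 ratios of -1.30 to -0.71. ASPM, which organises spindle poles, fell from 76.8 to 30.6 CPM (0.40-fold, 0.26 to 0.58), with -1.43, -0.86 and -1.30 for gRNA1, gRNA3 and gRNA4, and its 27 UMIs lay in 7 cells. ANP32E, a histone chaperone, fell to 0.47-fold (0.31 to 0.68). DUT, which serves thymidylate synthesis, fell to 0.56-fold (0.43 to 0.72). CDK1, MKI67 and PBK, a mitotic kinase, were at -0.98, -0.96 and -0.95, UBE2T, a ubiquitin-conjugating enzyme of DNA repair, at -0.78, the cohesin subunit RAD21 at -0.76 and H2AFX at -0.71. CDK1, MKI67 and PBK were also low in the TUBB1 pool, at -0.57, -0.50 and -0.46. There ANP32E, DUT, UBE2T and RAD21 were at -0.18, -0.06, -0.11 and -0.19. The counts rested on gRNA4 in part: without it 15 genes were called higher and 9 lower.

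Among the higher called genes of the TRMT112 pool, DAB2, an endocytic adaptor, rose from 31.5 to 61.2 CPM (1.94-fold, 1.45 to 2.56), with 0.99, 0.09 and 1.11 for gRNA1, gRNA3 and gRNA4. DHRSX, a dehydrogenase family member, was at 0.73, LYRM2, a mitochondrial protein of complex I assembly, at 0.63, RHOQ, a small GTPase, at 0.62 and TFPI, an inhibitor of the coagulation pathway, at 0.60. Without the cell with the most UMIs of the gene, LYRM2, RHOQ and TFPI were at 0.48, 0.49 and 0.39, under 1.5-fold, and DAB2 (0.81) and DHRSX (0.60) lay inside the control gRNAs, which reached 0.84 and 0.71.

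The pools shared 3 called genes, all lower in both. ASPM was at -0.61 in the RPL18 pool and -1.30 in the TRMT112 pool, H2AFX at -0.82 and -0.71 and CHORDC1 at -0.64 and -0.61. As both pools were set against the same control cells, these calls are not independent. In the TUBB1 pool ASPM was at -0.57, near its value in the RPL18 pool, H2AFX at -0.38 and CHORDC1 at -0.13. In the joint pool, where all 5 gRNAs had to point the same way, STC1, the secreted hormone stanniocalcin, was highest, at 23.6 against 10.8 CPM (2.19-fold, 1.64 to 2.88), with 1.26 and 0.94 for RPL18 gRNA2 and gRNA3 and 1.29, 0.59 and 0.98 for TRMT112 gRNA1, gRNA3 and gRNA4. It was not counted in the single pools, where it stayed under 50 UMIs, and was at -0.25 in the TUBB1 pool. RHOQ (0.60), the heparan sulfate enzyme NDST1 (0.67), SNCG (0.67), BCL2L13 (0.69), ZBED1 (0.60), MTFR1L (0.59) and SEZ6L2 (0.59) were the other named joint genes above control. Without the cell with the most UMIs of the gene, STC1 was at 0.94, BCL2L13 at 0.62, inside the control gRNAs, which reached 0.65, and the other 6 at 0.53 to 0.58, under 1.5-fold. Lowest were the replication fork protein TIMELESS (-0.98), the spindle checkpoint kinase BUB1B (-0.96), SNX8 (-0.93), the DNA repair factor RAD51AP1 (-0.88) and PKMYT1, an inhibitory kinase of CDK1 (-0.87).

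Other genes stood apart between the pools. Directly compared, TP53TG1 was 2.54-fold higher in RPL18 than in TRMT112 cells (1.64 to 4.06), CXCL1 2.32-fold (1.29 to 4.46) and FANCI 0.48-fold (0.30 to 0.77). TIGAR was at 17.5 CPM in RPL18 and 37.4 CPM in TRMT112 cells (0.47-fold, 0.28 to 0.79) and FDXR at 132 and 197 CPM (0.67-fold, 0.55 to 0.82). CTSB was close in both, at 436 and 462 CPM (0.94-fold, 0.84 to 1.07), with log2 ratios of 0.66 and 0.74 to control. It was called in the RPL18 pool but not in the TRMT112 or the joint pool, because the TRMT112 gRNAs did not all share its sign. These intervals cover counting error only, and the genes were chosen after the values of both pools were seen.

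**Figure D5:**
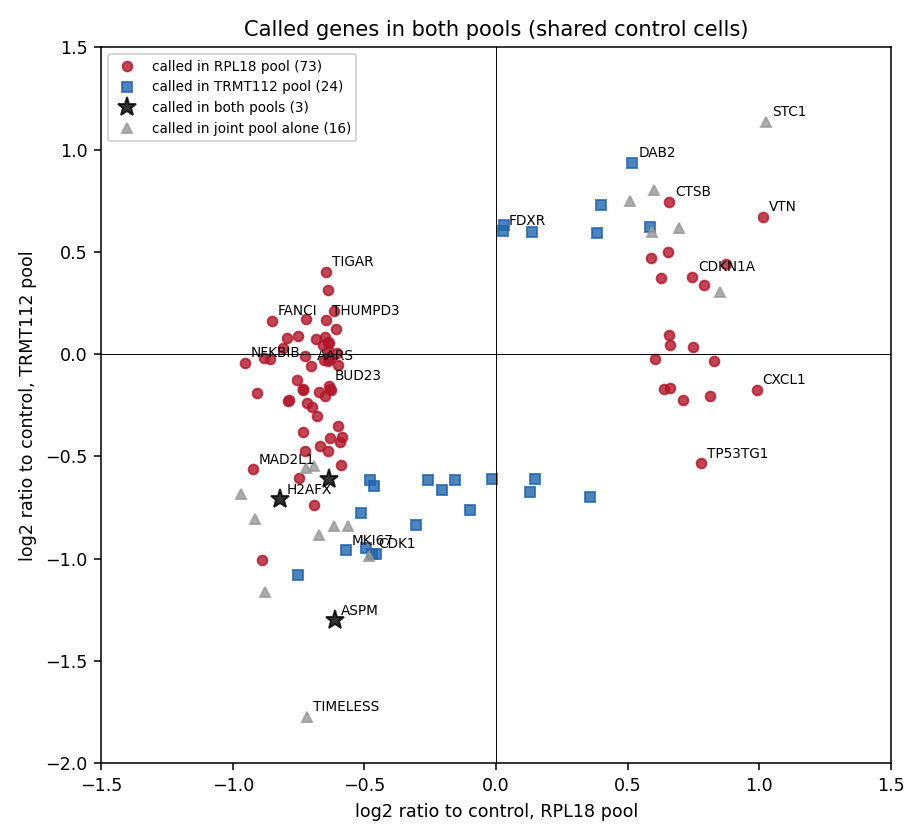
Log2 ratio to control in the RPL18 pool (horizontal) and the TRMT112 pool (vertical) for named genes called in the RPL18 pool, the TRMT112 pool, both or the joint pool alone. Both axes share the control cells. The 3 genes called in both pools (ASPM, H2AFX, CHORDC1) lie at the lower left, and TP53TG1 and CXCL1 lie right of 0 with values below 0 in the TRMT112 pool.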

How the data were processed

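The deposited values are raw UMI counts per gene and per gRNA in each cell, made by the authors with Cell Ranger 3.1.0 against GRCh38 from the transcriptome and the gRNA library of 1 pool of cells (33538 genes, 120 gRNAs, 5744 barcodes). R 4.2.0 and Seurat 4.1.0 are named in the submitters' processing notes and were not used here. A gRNA was called above 3 UMIs, and cells with 1 call were kept. Cells with several calls were left out, and doublets were not searched for otherwise. Mutant gRNAs were not told apart from intact gRNAs. No cell was removed for depth. UMIs were summed per gRNA and pool and divided by all gene UMIs, with 1 CPM added to both levels before each log2 ratio. Pools held 1823644 (RPL18), 882639 (TRMT112) and 25154674 (control) UMIs. With 1 culture no test across samples was possible. Intervals of levels and ratios are exact (Clopper-Pearson, 95%) and cover counting error only, and 15 control gRNAs with at least 10 cells give the spread. Intervals of shares of cells are exact binomial, and those of median UMIs per cell are order-statistic intervals. Both take the cells of 1 culture as independent draws.

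Genes with at least 50 UMIs, observed or expected, were compared. The text names the 10 highest and lowest called genes, the targets, CDKN1A, MDM2, GDF15, TRMT112 partners, neighbours within 100 kb and list members at the extremes; some genes under this rule are not reported here. The members and gene lists were chosen with earlier results of these data known. Spacers were placed on GRCh38 and annotated with GENCODE 44. The calling rule was tested on simulated counts drawn around the control means, without the spread between single cells seen here. That test therefore cannot show how often the rule errs in these data. Alternatives changed the gRNA call, control cells, CPM added, weighting, scaling, UMI minimum and gRNAs included; leaving out the cell with the most UMIs of a gene was chosen after seeing the data. Python 3.11.15, NumPy 2.4.6, SciPy 1.17.1, pandas 2.3.3, scikit-learn 1.9.0 and matplotlib 3.10.9 were used.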

Additional observations from a re-analysis of the deposited data

How the results depend on the processing

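Of the values recomputed under other settings 348 moved by less than the spread of control gRNAs or, for counts, by less than 1.5 times, 72 moved by more and 3 changed sign where the usual value lay outside the control gRNAs. Sign changes of values inside that range are counted among the others. The cause was not tested. With TUBB1 cells as the control, the RPL18 pool had 39 genes higher, the TRMT112 pool 13 and the joint pool 27. RPL18 list medians were then -0.015 for large and -0.0039 for small ribosomal proteins, both turned, -0.19 for ribosome biogenesis, -0.21 for synthetases, -0.17 for chaperones and -0.16 for G2/M genes, and TRMT112 medians were -0.073, -0.078 and -0.17 for large and small ribosomal proteins and G2/M genes. A gRNA call above 10 UMIs gave 5 joint genes higher and -0.27 for RPL18 synthetases. With 10 CPM added, 9 genes were higher and 21 lower with RPL18, 3 higher with TRMT112, and 2 higher and 6 lower jointly. Means over cells gave -0.28 for TRMT112 transcript, 39 genes higher with RPL18, 21 higher and 37 lower with TRMT112, RPL18 medians of 0.023 (small ribosomal proteins), -0.11 (proteasome), -0.14 (chaperones) and -0.23 (G2/M), and -0.77 for G2/M genes with TRMT112. Means over gRNAs gave -0.41 for TRMT112 transcript, 115, 34 and 82 genes lower in the RPL18, TRMT112 and joint pools, and -0.84 for RPL18 G2/M genes. Scaling without ribosomal protein and mitochondrial genes gave 34 genes higher with RPL18 and 0.082 and 0.096 for its large and small ribosomal proteins. Median-ratio scaling gave -0.068 for RPL18 transcript, 47 genes higher and 26 lower with RPL18, 15 higher jointly, and 0.12, 0.13 and -0.17 for large and small ribosomal proteins and the proteasome. At least 20 UMIs gave 77 higher and 139 lower (RPL18), 69 and 89 (TRMT112), and 23 and 36 (joint), and no minimum gave 236 and 247, 214 and 363, and 32 and 60. Leaving out 1 gRNA at a time, RPL18 transcript ran from -0.20 to -0.081 and TRMT112 transcript from -0.77 to -0.30. RPL18 medians ran from -0.73 to -0.29 (G2/M), -0.63 to -0.26 (synthetases) and 0.0087 to 0.063 (small ribosomal proteins), and TRMT112 medians from -0.20 to 0.070 (proteasome, turned without gRNA4), -0.11 to 0.20 (ribosome biogenesis) and -0.25 to -0.11 (chaperones). Counts higher and lower ran from 7 to 15 and 9 to 25 with TRMT112 and from 4 to 12 and 15 to 26 jointly. For TRMT112 over control, median UMIs per cell ran from 0.744 to 1.03 and the telomeric share from 0.959 to 1.15. No paired analysis was possible because there is 1 pool of cells. Depth limits genes under 50 UMIs, and cell numbers limit each gRNA.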

Other observations

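One RPL18 gRNA3 cell with 53118 UMIs held 41 of the 42 IFIT2, 39 of the 51 IFIT3, 25 of the 28 IFIT1 and 63 of the 95 ISG15 UMIs of the RPL18 pool, all interferon-stimulated genes. The same cell held 15 of the 69 ZNFX1 UMIs and 0 CXCL1 UMIs.

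Further lists were near the spread of control gRNAs. Cholesterol synthesis genes in the RPL18 pool had a median log2 ratio of -0.20 with 12 of 13 below 0, against -0.27 to 0.20 over control gRNAs. Of these genes 0 were called, where 1.38% of all genes tested were called lower. ATF4 stress response genes had medians of -0.12 with RPL18 and -0.18 with TRMT112 gRNAs, and mitochondrially encoded mRNAs 0.06 and 0.07, all within control gRNAs. NRF2 targets were at -0.01 and 0.00, also within them. The 6 measured ribosomal protein paralogs had -0.04 with RPL18 and -0.22 with TRMT112 gRNAs, the latter below the -0.13 of the lowest control gRNA, with RPL22L1 at -0.45, RPL7L1 at -0.42 and RPL26L1 at -0.38, but with 2 of the 6 above 0 and RPS27L at 0.12. The medians for gRNA1, gRNA3 and gRNA4 were -0.30, 0.20 and -0.25, and the summed UMIs of the list were at 0.999 times control (0.956 to 1.04). Of the listed RNA methyltransferases, 10 were measured in the RPL18 pool, with a median of -0.16 against -0.21 to 0.25 over control gRNAs, and none reached 50 UMIs in the TRMT112 pool.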
